A study of Homo sapiens with 10 samples.

Results

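Iron is taken up, stored, released from storage and recovered from haem by a small set of genes, and 10 of them were followed here across matrix stiffness and glucose in human mammary epithelial cells. They were taken by symbol from a table of 27942 genes, and all 10 were found. FTH1 and FTL encode the heavy and light chains of ferritin, the shell in which cells store iron. TFRC (the transferrin receptor) and SLC11A2 (a metal transporter of the endosome and plasma membrane) bring iron in, and SLC40A1 (ferroportin) exports it. HMOX1 (haem oxygenase) opens the haem ring, and BLVRB, a biliverdin and flavin reductase, is listed with it under haem breakdown. NCOA4 is the receptor that delivers ferritin to autophagy, and IREB2 and ACO1 encode the iron regulatory proteins.

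The cells were MCF10A, an established, non-tumorigenic human mammary epithelial line, seeded on fibronectin-coated polyacrylamide gels and harvested after 24 h. Of the 5 groups, 4 differed in gel stiffness (400 Pa, 1 kPa, 6 kPa or 60 kPa) at 5 mM glucose, and 1 was grown on 400 Pa gels at 25 mM glucose, called the high glucose group below. Every group shared the supplements of the medium, which were horse serum, epidermal growth factor, insulin, hydrocortisone and cholera toxin. Each group had 2 libraries of polyadenylated RNA, each from a pool of 4 gel cultures, so the spread within a group is that between pools of 1 cell line.

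When iron is scarce, the iron regulatory proteins bind a stem-loop in messenger RNA, the iron responsive element. In the 5′ UTR of ferritin and ferroportin transcripts the bound protein blocks translation, and in the 3′ UTR of TFRC it protects the transcript from decay. Ferritin genes and HMOX1 are also known as transcriptional targets of NRF2, the factor that responds to oxidants and electrophiles, and HMOX1 is repressed by BACH1 until haem displaces that repressor. Messenger RNA levels such as those given here therefore show only some of the layers at which these genes are regulated.

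The elements found are shown because their place differs between storage and uptake genes: FTH1, FTL and SLC40A1 carry one before the coding sequence, and TFRC carries several after it. An isoform of SLC11A2 is also known to carry one in its 3′ UTR, which the pattern below did not match. The pattern searched was the loop CAGTGN, with A, C or T as its last base, between 5 bases on each side able to pair (G with T allowed) and a C just before them, on the sense strand of GENCODE v29 transcripts (GRCh38). Capitals mark the loop, and the TFRC sites are in order from the stop codon.
FTH1, 5′ UTR: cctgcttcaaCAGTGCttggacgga
FTL, 5′ UTR: cttgcttcaaCAGTGTttggacgga
SLC40A1, 5′ UTR: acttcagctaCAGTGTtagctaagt
TFRC, 3′ UTR, nearest the stop codon: ttatcggaagCAGTGCcttccataa
TFRC, 3′ UTR, next: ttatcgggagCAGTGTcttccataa
TFRC, 3′ UTR, next: gtatcggagaCAGTGAtctccatat
TFRC, 3′ UTR, farthest: ttatcgggaaCAGTGTttcccataa
These 4 genes were the members with a match, and the same pattern was found in the transcripts of 214 of 19669 protein-coding genes (1.088%). The antioxidant response core TGACNNNGC was looked for on both strands in RefSeq promoter windows (GRCh38.p14), which the table held for 8 of the members and not for FTH1 and HMOX1. It was in 0 of those 8 windows and in 13.558% of the 27305 windows in all. The windows are short, that of FTL running from base 48965059 to 48965358 of chromosome 19, and sequence outside them was not searched.

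Levels are in FPKM, reads per kilobase of exon scaled to the mapped reads of the library, so that genes of different length can be set side by side. Mapped reads ran from 2.98 to 28.6 M per library (M, in units of 1e6), deepest at 400 Pa and shallowest at 6 kPa, and 62.0% to 71.7% of them fell in counted exons. The libraries of a group are named the deeper and the shallower. In 5 libraries (both at 400 Pa, both at 1 kPa and the deeper at 6 kPa), transcripts rich in G and C stood higher relative to the mean of all libraries (Spearman rho over 12650 genes 0.60 to 0.66). In the other 5 they stood lower, with rho of -0.31 for the shallower 6 kPa library and -0.57 to -0.66 for those at 60 kPa and high glucose. This GC trend divides the libraries almost as the stiffness and glucose comparisons do, and what part of it is technical cannot be told apart from the groups. Main results are therefore given with the value after a correction that removes, in each library, a smooth curve of log2 level on transcript GC content. All 6 epithelial markers were above 0.5 FPKM on average, led by KRT5 at 1135 to 1694 FPKM. Of 5 macrophage markers, which matter because macrophages are rich in HMOX1 and ferritin, PTPRC reached 0.018 FPKM and CD163 was at 0, while the other 3 (CD14, CD68 and CSF1R) averaged over 0.5 FPKM. The 4 erythroid markers all averaged under 0.5 FPKM.

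The storage genes were by far the most abundant members. FTH1 averaged 1220 FPKM over the 10 libraries, at the 99.9th percentile of all genes in the table, and FTL averaged 403 FPKM, at the 99.7th. FTH1 (NM_002032, minus strand of chromosome 11, 61731757 to 61735132 in hg19) was counted over 1223 exon bases and FTL (NM_000146, plus strand of chromosome 19, 49468566 to 49470136) over 865. These levels rested on 3931 to 53789 reads per library for FTH1 and 846 to 14805 for FTL. Processed copies of ferritin genes can take reads from their parents, and of 5 further ferritin genes and copies FTMT, FTHL17, FTH1P18 and FTLP10 were at 0 in every library. The one copy with reads, FTH1P3, had 1.46 to 4.26 FPKM, a mean of 0.225% of that of FTH1. Reads shared with copies that are not among the genes of the table were not measured.

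**Figure D1:**
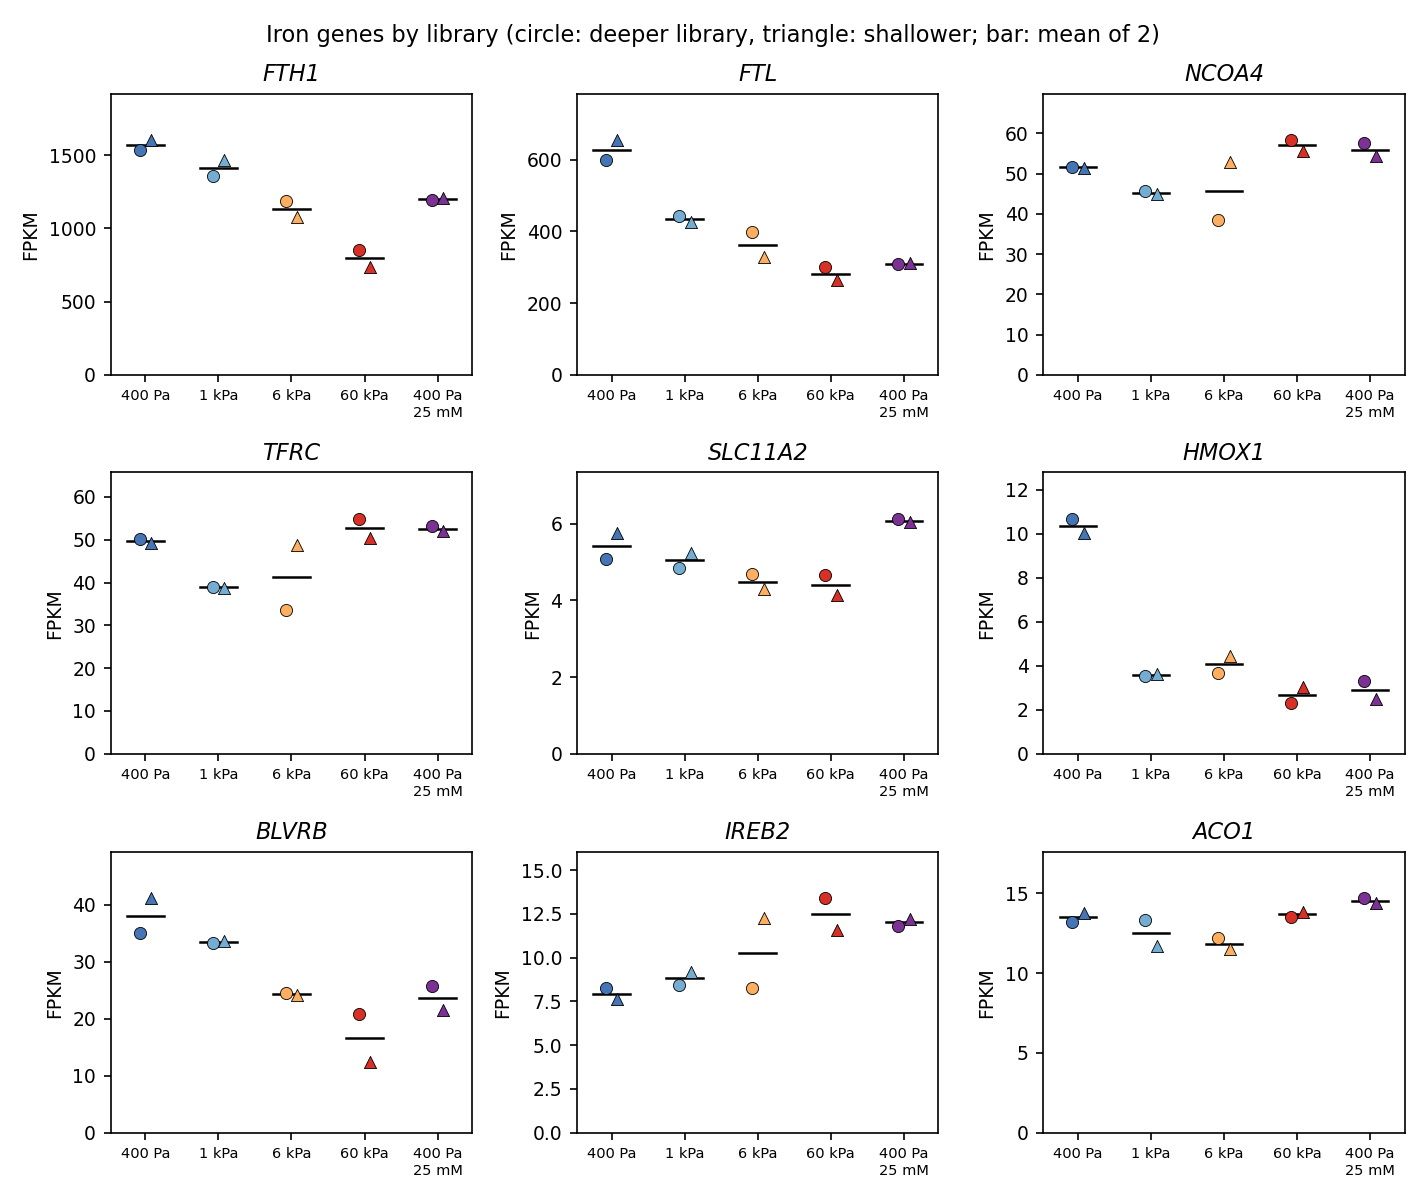
FPKM of the 9 detected iron genes in each library (circle, deeper library; triangle, shallower) with the mean of 2 as a bar, by gel stiffness and for 400 Pa gels at 25 mM glucose. FTH1, FTL and BLVRB step down as stiffness increases, HMOX1 stands apart at 400 Pa with 5 mM glucose, and TFRC and NCOA4 differ most between the libraries of 6 kPa.

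FTH1 transcript fell with stiffness and, less, with glucose. FTH1 was at 1537 FPKM in the deeper and 1600 FPKM in the shallower 400 Pa library, at 1354 and 1464 FPKM at 1 kPa, at 1184 and 1078 FPKM at 6 kPa and at 854 and 736 FPKM at 60 kPa. At high glucose on the softest gel it was at 1190 and 1204 FPKM. In the order of the group means no neighbouring groups overlapped. The libraries lined up by stiffness, with high glucose between 1 kPa and 6 kPa. How many of all tested genes had groups this separate was not counted. The group mean was 1569 ± 44.3 FPKM at 400 Pa and 795 ± 83.4 FPKM at 60 kPa (SD, n = 2 each). On the scale of log2(FPKM + 1) FTH1 was 0.98 ± 0.09 (SE) lower at 60 kPa, or at 0.506 of its 400 Pa level (log2 fold change -0.98, adjusted p = 0.00109, limma over 12820 genes with Benjamini-Hochberg adjustment). With high glucose it fell by 0.39 ± 0.09 (adjusted p = 0.0179, limma), to 0.763 of its level at 5 mM. In bulk libraries, fewer cells that hold a transcript and less of it per cell cannot be told apart.

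FTL, the light chain, fell more evenly under both conditions. Its levels were 598 and 653 FPKM at 400 Pa, 442 and 424 FPKM at 1 kPa, 397 and 328 FPKM at 6 kPa, 301 and 263 FPKM at 60 kPa and 309 and 311 FPKM at high glucose, the deeper library first in each pair. Again no neighbouring groups overlapped, which was not counted over all genes, and the high glucose libraries sat just above those of 60 kPa. FTL fell by 1.15 ± 0.11 (SE, log2) at 60 kPa against 400 Pa (adjusted p = 0.00126, limma), and with high glucose its log2 fold change was -1.01 ± 0.11 (adjusted p = 0.00651, limma). As deposited, the 2 chains did not move by the same amount. The level of FTH1 over that of FTL within a library was 2.45 and 2.57 at 400 Pa and 2.80 and 2.83 at 60 kPa. At high glucose it was 3.85 and 3.87. At 1 kPa and 6 kPa it lay between 2.98 and 3.45. As deposited, the softest gel at 5 mM thus had the lowest share of heavy chain transcript and high glucose the highest. After the GC correction the log2 fold changes at 60 kPa were close, at -0.98 for FTH1 and -0.96 for FTL. With high glucose they were -0.42 for FTH1 and -0.81 for FTL. The difference between the chains was not tested.

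HMOX1 and BLVRB, the members of haem breakdown, fell as well, while the related genes HMOX2 and BLVRA did not pass in either main comparison. HMOX1 (NM_002133, plus strand of chromosome 22, 35777060 to 35790207) was at 10.6 and 10.0 FPKM at 400 Pa, in the deeper and the shallower library, and at 2.30 to 4.45 FPKM in the other 8 libraries. In detail it was at 3.52 and 3.62 FPKM at 1 kPa, 3.69 and 4.45 FPKM at 6 kPa, 2.30 and 3.02 FPKM at 60 kPa and 3.29 and 2.49 FPKM at high glucose. HMOX1 thus had a single high group, with a gap of 2.54 times to the next mean, where ferritin had a series of steps. On log2(FPKM + 1), the scale of every log2 fold change here except the authors', changes of genes at low levels come out smaller than in FPKM. On that scale HMOX1 fell by 1.64 ± 0.16 (SE) at 60 kPa (adjusted p = 0.00127, limma). With high glucose its log2 fold change was -1.55 ± 0.16 (adjusted p = 0.00651, limma). Outside the 400 Pa group HMOX1 rested on 21 to 63 reads per library, against 482 and 206 at 400 Pa. The summed level of the 5 macrophage markers moved the same way, from 23.5 FPKM in both 400 Pa libraries to 10.0 and 15.2 FPKM at 60 kPa and 16.7 and 18.0 FPKM at high glucose, with PTPRC and CD163 at or near 0 throughout. The sum of the 6 epithelial markers was lower at 60 kPa and high glucose too, at 2057 to 2116 FPKM at 400 Pa, 1560 to 1732 FPKM at 60 kPa and 1466 to 1480 FPKM at high glucose. So was that of the 4 fibroblast markers, at 0.882 to 0.954, 0.501 to 0.759 and 0.461 to 0.543 FPKM, with COL1A2 and COL3A1 at 0 in every library. The part of these marker genes in the HMOX1 result was not tested.

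BLVRB (NM_000713, minus strand of chromosome 19, 40953691 to 40971725) followed the stepwise pattern of FTH1. It was at 35.1 and 41.1 FPKM at 400 Pa, 33.3 and 33.6 FPKM at 1 kPa, 24.4 and 24.1 FPKM at 6 kPa, 20.8 and 12.5 FPKM at 60 kPa and 25.7 and 21.5 FPKM at high glucose. The high glucose and 6 kPa libraries overlapped, and the 60 kPa libraries lay lowest with the widest spread. BLVRB fell by 1.19 ± 0.20 (SE, log2) at 60 kPa (adjusted p = 0.00636, limma), a call that ended without the shallower 400 Pa library (adjusted p = 0.0761, limma). With high glucose it fell by 0.67 ± 0.20 (adjusted p = 0.0415, limma), a call that held in 4 of 10 fits that each left out 1 library (adjusted p up to 0.238).

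As deposited, neither uptake gene passed the test at 60 kPa or with high glucose, and after the GC correction TFRC fell in both. TFRC (NM_001128148, minus strand of chromosome 3, 195776155 to 195809032) was at 50.1 and 49.1 FPKM at 400 Pa, 38.9 and 38.8 FPKM at 1 kPa, 33.6 and 48.7 FPKM at 6 kPa, 54.8 and 50.5 FPKM at 60 kPa and 53.1 and 52.0 FPKM at high glucose. The 400 Pa, 60 kPa and high glucose libraries all lay between 49.1 and 54.8 FPKM, and the deeper 6 kPa library and those of 1 kPa had the lowest values. Neither main comparison passed for TFRC (60 kPa against 400 Pa, log2 fold change 0.08, 95% interval -0.26 to 0.42, adjusted p = 0.726, limma; high glucose, 0.08, adjusted p = 0.713). After the GC correction the sign turned and TFRC fell in both, by 0.31 at 60 kPa (adjusted p = 0.044, limma) and by 0.37 with high glucose (adjusted p = 0.038, limma). In the 8 other alternative settings and in the 10 uncorrected fits that each left out 1 library, TFRC passed in neither comparison. The corrected fit was not repeated with libraries left out. SLC11A2 (counted on NR_033422, minus strand of chromosome 12, 51373566 to 51420199) was less abundant per length than TFRC in every library, at 4.13 to 6.11 FPKM on 28 to 319 reads. Its highest libraries were those of high glucose, at 6.11 and 6.04 FPKM, and its lowest was the shallower one at 60 kPa, at 4.13 FPKM. Neither change passed (60 kPa, log2 fold change -0.25, adjusted p = 0.18; high glucose, 0.14, adjusted p = 0.415, limma).

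The export gene SLC40A1 (NM_014585, minus strand of chromosome 2, 190425316 to 190445537) had no read in any of the 10 libraries. A count of 0 allows up to 3 reads, which is 0.0314 FPKM in the deepest library and 0.301 FPKM in the shallowest (counting error only). The other genes listed with it were HEPH and CP, the ferroxidases that work beside ferroportin, and HAMP, the hormone that degrades it, and 0 of these 4 averaged 0.5 FPKM. Iron export genes could therefore not be compared between conditions at this depth.

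Storage was also set against uptake within each library, as deposited. The level of FTH1 was 30.7 and 32.6 times that of TFRC at 400 Pa, 34.8 and 37.7 times at 1 kPa, 35.2 and 22.1 times at 6 kPa, 15.6 and 14.6 times at 60 kPa and 22.4 and 23.1 times at high glucose. FTL stood at 11.9 and 13.3 times TFRC at 400 Pa, 11.4 and 10.9 times at 1 kPa, 11.8 and 6.73 times at 6 kPa, 5.51 and 5.20 times at 60 kPa and 5.82 and 5.98 times at high glucose. For both chains the libraries of 60 kPa and high glucose lay below all those of 400 Pa and 1 kPa. The 6 kPa libraries were split, the deeper one beside the soft gels and the shallower one beside high glucose, which is also how they stood in the GC trend. After the GC correction the log2 fold changes at 60 kPa were -0.98 for FTH1 and -0.96 for FTL beside -0.31 for TFRC. With high glucose they were -0.42 for FTH1 and -0.81 for FTL beside -0.37 for TFRC, so little of the lower ratio of FTH1 to TFRC at high glucose was left. The differences between these genes were not tested.

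**Figure D2:**
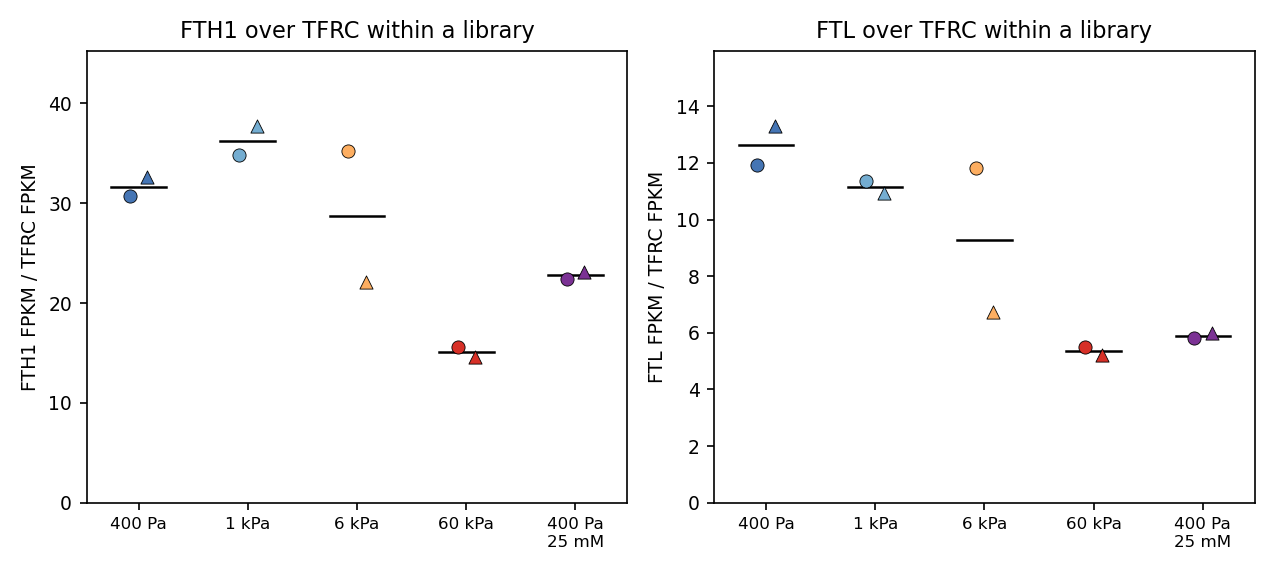
FPKM of FTH1 (left) and of FTL (right) divided by that of TFRC in the same library (circle, deeper; triangle, shallower; bar, mean of 2). The ratio of FTH1 is 30.7 to 37.7 at 400 Pa and 1 kPa and 14.6 to 15.6 at 60 kPa, with the 2 libraries of 6 kPa far apart.

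The level of NCOA4, the gene of ferritin turnover, varied over the libraries much as that of TFRC did. NCOA4 (NM_005437, plus strand of chromosome 10, 51572364 to 51590734) was at 51.6 and 51.5 FPKM at 400 Pa, 45.6 and 44.9 FPKM at 1 kPa, 38.5 and 53.0 FPKM at 6 kPa, 58.3 and 55.7 FPKM at 60 kPa and 57.5 and 54.4 FPKM at high glucose. Neither main comparison passed for NCOA4 (log2 fold changes 0.14, adjusted p = 0.48, and 0.12, adjusted p = 0.55, limma). After the GC correction the signs of NCOA4 turned, to -0.17 (adjusted p = 0.208, limma) and -0.25 (adjusted p = 0.0919). Over the 10 libraries, which share the GC trend, its log2 level had a Pearson r of 0.98 with that of TFRC and of -0.42 with that of FTH1. Among the 7702 genes that averaged 5 FPKM or more, NCOA4 had the pattern most like TFRC, followed by TTC1 (r = 0.97), PFN2 (0.97), KAT14 (0.97) and CNTD1 (0.96). The genes most like FTH1 were ASS1 (argininosuccinate synthase, 0.99), SPRR1B (a cornified envelope precursor, 0.99), ITPRIP (0.98), FXYD3 (0.98) and ADIRF (0.98).

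Of the genes of the iron regulatory proteins, IREB2 passed in both main comparisons as deposited and ACO1 in neither. After the GC correction neither gene passed, and the difference between them was not tested. IREB2 (NM_004136, plus strand of chromosome 15, 78730518 to 78793798) was at 8.25 and 7.62 FPKM at 400 Pa, 8.46 and 9.21 FPKM at 1 kPa, 8.29 and 12.3 FPKM at 6 kPa, 13.4 and 11.6 FPKM at 60 kPa and 11.8 and 12.2 FPKM at high glucose. It rose by 0.59 ± 0.17 (SE, log2) at 60 kPa (adjusted p = 0.0358, limma) and by 0.54 ± 0.17 with high glucose (adjusted p = 0.0436, limma). At 38.3% GC it was the member poorest in G and C, and after the GC correction its changes were 0.08 (adjusted p = 0.686, limma) and -0.02 (adjusted p = 0.933). The IREB2 call at 60 kPa held in 2 of 10 fits that each left out 1 library (adjusted p up to 0.21, limma), the ones without a 6 kPa library, and the call with high glucose held in the same 2 (up to 0.226). ACO1 (NM_002197, plus strand of chromosome 9, 32384601 to 32450832), which is the cytosolic aconitase when it holds an iron-sulfur cluster, stayed within 11.5 to 14.7 FPKM in all 10 libraries. Its changes were 0.02 at 60 kPa (adjusted p = 0.917, limma) and 0.10 with high glucose (adjusted p = 0.509, limma). After the GC correction they were -0.15 (adjusted p = 0.359, limma) and -0.13 (adjusted p = 0.479, limma).

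Counted together at 60 kPa against 400 Pa, 4 of the 9 tested members fell (FTH1, FTL, HMOX1 and BLVRB) and 1 rose (IREB2), while 6.15% of all tested genes fell and 15.1% rose. After the GC correction 5 members fell, the same 4 with TFRC, and 0 rose, against 4.40% and 5.64% of all genes. Of the 4 that fell, FTH1 kept its size under the correction (-0.98), and FTL (-0.96), HMOX1 (-1.40) and BLVRB (-0.86) came out smaller but still called. FTH1, FTL and HMOX1 were called in 10 of 10 fits that each left out 1 library (adjusted p up to 0.0238, limma). With high glucose the same 4 members fell and IREB2 rose, where 6.84% of all genes fell and 17.6% rose. After the correction FTH1 (-0.42), FTL (-0.81), HMOX1 (-1.30) and TFRC fell and 0 members rose, against 2.51% and 2.72% of all genes, and BLVRB no longer passed (-0.31, adjusted p = 0.365, limma). Both comparisons use the same 400 Pa libraries, so their likeness is not independent evidence. Without the deeper or the shallower 400 Pa library the limma fit called 0 genes for glucose (3790 and 2960 at an unadjusted p under 0.05), and the adjusted p was then up to 0.144 for FTH1 and 0.0881 for FTL and HMOX1. Without the shallower high glucose library it called 3 genes and 0 members, and without the deeper one 498 genes with FTL and HMOX1 among them. The authors' deposited table gives log2 fold changes at 60 kPa of -1.07 for FTH1, -1.24 for FTL, -2.06 for HMOX1 and -1.28 for BLVRB. For high glucose the authors' deposited table gives -0.50, -1.13, -1.95 and -0.80 for the same genes in that order. At 60 kPa and high glucose it gives rises of 0.56 and 0.48 for IREB2, and -0.010 and -0.032 for TFRC.

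**Figure D3:**
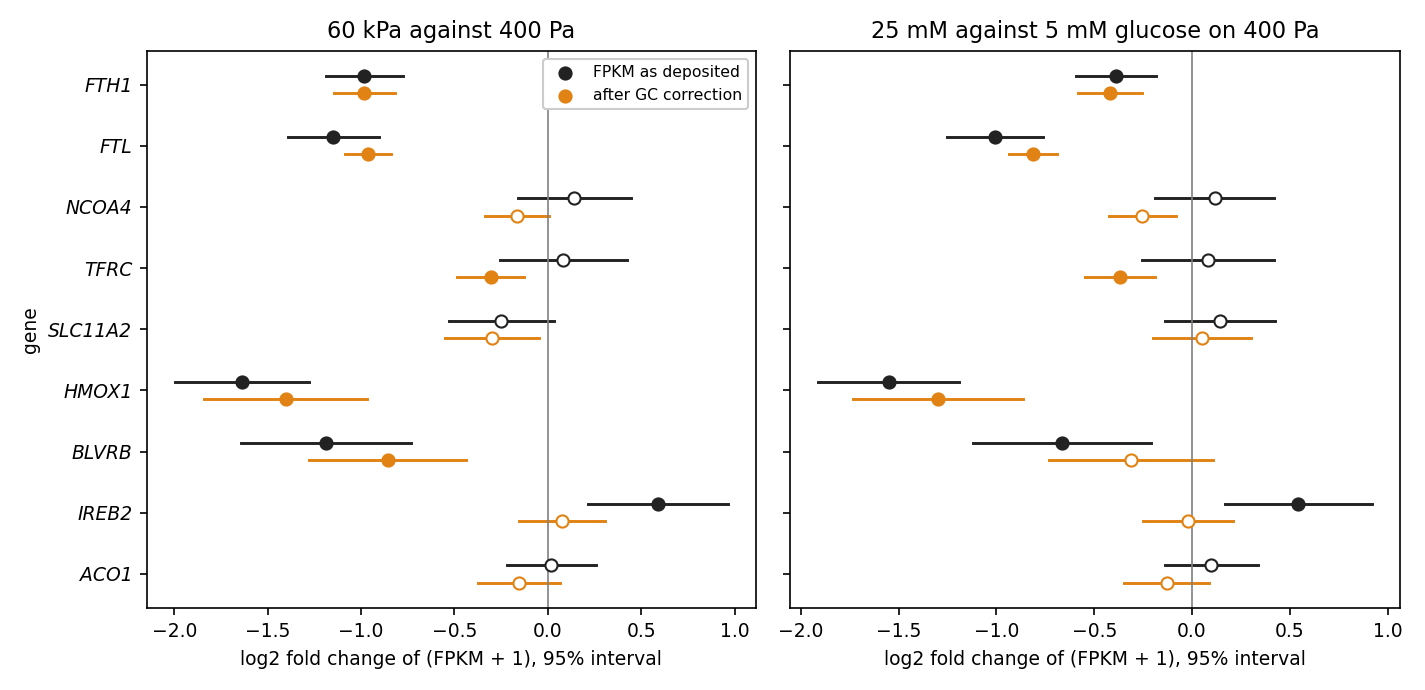
Log2 fold change of (FPKM + 1) with its 95% interval for the 9 detected members at 60 kPa against 400 Pa (left) and at 25 mM against 5 mM glucose (right), from FPKM as deposited (black) and after the GC correction (orange). Filled points have an adjusted p under 0.05; FTH1, FTL and HMOX1 are filled in every case and IREB2 only before the correction.

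**Figure D4:**
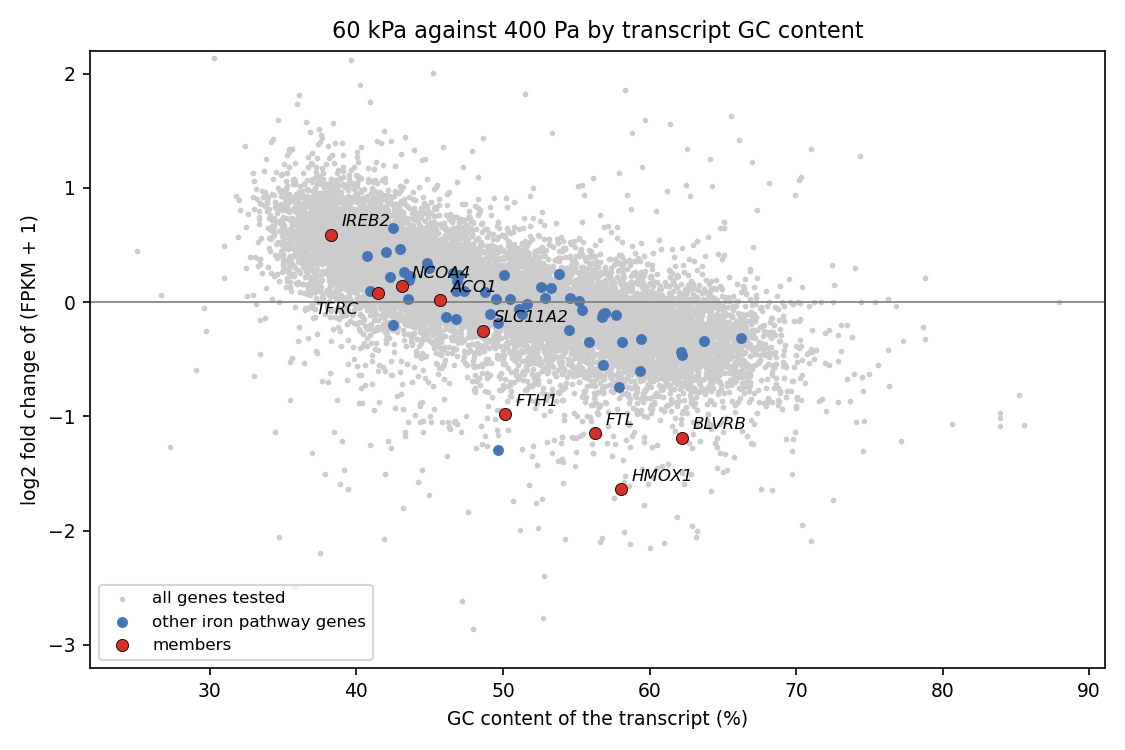
Log2 fold change of (FPKM + 1) at 60 kPa against 400 Pa by the GC content of the transcript for all tested genes (grey), other iron pathway genes (blue) and the members (red); 2 genes lie outside the plotted range. The fold changes decrease with GC content (Spearman rho -0.72), and FTH1, FTL, HMOX1 and BLVRB lie below genes of like GC content while IREB2 lies among them.

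The comparison of 60 kPa at 5 mM with 400 Pa at 25 mM asks where the stiff gel and the high glucose state differ. FTH1 was lower at 60 kPa by 0.59 ± 0.09 (SE, log2 fold change -0.59, adjusted p = 0.016, limma) and was the only member of 9 called, where 1.75% of all genes were. FTL (log2 fold change -0.14, 95% interval -0.38 to 0.11) and HMOX1 (-0.09, -0.45 to 0.27) did not pass, and their libraries at 60 kPa and high glucose lay close together. BLVRB was -0.52 ± 0.20 (SE) with an adjusted p of 0.275 (limma), and -0.55 after the GC correction (adjusted p = 0.122, limma). Its fold change was near that of FTH1, and the difference between members was not tested. This contrast had little GC trend (Spearman rho 0.12), and after the correction FTH1 was again the only member called (-0.56, adjusted p = 0.00295, limma), beside 6.98% of all genes. The call for FTH1 ended without the shallower 60 kPa library or without either high glucose library (adjusted p up to 0.171, limma).

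Between neighbouring gels the first step moved HMOX1 and FTL most. At 1 kPa against 400 Pa HMOX1 had a log2 fold change of -1.31 ± 0.16 (SE), with an adjusted p of 0.145 (limma). FTL had -0.53 ± 0.11 with an adjusted p of 0.602 (limma). The limma fit called 0 of 9 members in this step and 0% of all genes, with 776 genes at an unadjusted p under 0.05. This contrast had next to no GC trend (Spearman rho -0.02), and after the correction FTL was called (-0.49, adjusted p = 0.0242, limma), as were 0.0395% of all genes. At 6 kPa against 400 Pa FTL (-0.79) and HMOX1 (-1.17) both fell (adjusted p = 0.0289, limma), where 0.351% of all genes were called. FTH1 at -0.47 had an adjusted p of 0.0772 there, and after the correction it fell with FTL, HMOX1 and TFRC (1.97% of all genes called). Leaving out either library of 6 kPa kept FTL and HMOX1 called, but leaving out either library of 400 Pa or of 1 kPa ended both calls, and leaving out either high glucose library ended that of FTL. In all, FTL was called in 4 of 10 such fits and HMOX1 in 6 (adjusted p up to 0.392, limma). TFRC depended on the 6 kPa library used, with a log2 fold change of -0.55 for the deeper one alone and of -0.025 for the shallower one alone.

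From 1 kPa to 6 kPa 0 members were called (0.195% of all genes, and 0 members beside 1.79% after the correction). From 6 kPa to 60 kPa 0 members were called either (0.203% of all genes), with FTH1 at -0.51 and an adjusted p of 0.0636 (limma). After the correction FTH1 alone was called in this last step (-0.56, adjusted p = 0.0201, limma), beside 0.561% of all genes. Without the shallower 6 kPa library the last step called 4034 genes and 5 members, FTH1 (-0.58), FTL (-0.50), TFRC (0.63), NCOA4 (0.55) and IREB2 (0.53), so the 6 kPa values depend on which library stands for the group. A straight trend over the 8 libraries at 5 mM gave a slope per 10-fold of stiffness of -0.45 ± 0.05 (SE) for FTH1 (adjusted p = 0.000884, limma), -0.48 for FTL, -0.55 for BLVRB and -0.58 for HMOX1, and 0.26 for IREB2, all called beside 23.3% of all genes. With each of these 8 libraries left out in turn, the slopes of FTH1, FTL and BLVRB were called in every fit. Those of HMOX1 and IREB2 were not called without either library of 400 Pa or of 60 kPa, and were called in the rest. After the correction FTH1 (-0.46), FTL (-0.40) and BLVRB (-0.39) were called beside 8.58% of all genes, and HMOX1 was not (-0.47, adjusted p = 0.118, limma).

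In a wider view, 74 genes of iron and haem handling, the members included, were listed by role, of which 61 had enough reads to test. At 60 kPa 1 of the 61 rose and 8 fell, where 15.1% of all tested genes rose and 6.15% fell. The 1 was IREB2, and the 8 include the members FTH1, FTL, HMOX1 and BLVRB, so these counts repeat the member calls. The median log2 fold change of the 61 was 0.0069 against 0.058 for all tested genes. After the correction 0 rose and 8 fell, with FTH1, FTL, HMOX1, BLVRB and TFRC among the 8, where 5.64% of all genes rose and 4.40% fell. In storage and iron chaperoning 2 of 5 tested genes fell, the ferritin chains, while the iron chaperones PCBP1 (0.0069, adjusted p = 0.968, limma) and PCBP2 (-0.19, adjusted p = 0.185) did not pass. Of 7 tested uptake genes 0 passed, TFRC and the zinc and iron transporter SLC39A14 (0.10, adjusted p = 0.547, limma) being the most abundant. After the correction CYBRD1, a ferric reductase, fell with TFRC (-0.54, adjusted p = 0.0154, limma). Haem breakdown and transport held 4 that fell of 9 tested. Beside HMOX1 and BLVRB these were the haem transporters SLC48A1 (-0.74 ± 0.13, adjusted p = 0.00695, limma) and FLVCR2 (-1.30 ± 0.27, adjusted p = 0.0126, mean of 1.62 FPKM), and all 4 were still called after the correction. The other haem oxygenase HMOX2 (-0.11, adjusted p = 0.577, limma) and the other biliverdin reductase BLVRA (0.03, adjusted p = 0.87) did not pass. They averaged 37.0 and 38.2 FPKM, against 4.71 FPKM for HMOX1 and 27.2 FPKM for BLVRB.

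The remaining lists hold the makers of haem and iron-sulfur clusters and the iron sensors, and few of their genes were called at 60 kPa. In haem synthesis 1 of 11 fell, the porphyrin transporter ABCB6 (-0.60, adjusted p = 0.0306, limma), and after the correction 0 did. Mitochondrial iron and iron-sulfur assembly had 0 of 16 called, with GLRX5 (0.04) and BOLA3 (0.18) the most abundant. In cytosolic iron-sulfur assembly 1 of 9 fell, FAM96B (-0.55, adjusted p = 0.0409, limma), and 0 after the correction. Of the 4 sensing genes IREB2 alone passed, and FBXL5, the ligase subunit that degrades IREB2 protein, was at 0.09 (adjusted p = 0.715, limma).

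With high glucose 4 of the 61 rose and 12 fell, where 17.6% of all tested genes rose and 6.84% fell (median log2 fold change -0.05 against 0.08 for all tested genes). After the correction 0 rose and 6 fell, where 2.72% of all genes rose and 2.51% fell. These counts include the members, with IREB2 among the 4 and FTH1, FTL, HMOX1 and BLVRB among the 12. FTH1, FTL, HMOX1 and TFRC were among the 6. Both ferritin chains fell among 5 storage genes. The metal transporter SLC39A8 rose among the uptake genes (0.42, adjusted p = 0.038, limma) and was not called after the correction (0.08, adjusted p = 0.65). Haem breakdown and transport held 3 that fell of 9, HMOX1, BLVRB and SLC48A1 (-0.60, adjusted p = 0.0143, limma), of which HMOX1 alone was called after the correction. FLVCR2 at 0.11 (adjusted p = 0.786, limma) was not called with glucose, and its level differed between 60 kPa and high glucose (-1.41, adjusted p = 0.0398, limma). In haem synthesis UROS (-0.49) and ABCB6 (-0.63) fell (both adjusted p = 0.0251, limma), and in the mitochondrial list ISCU (0.37) and ISCA1 (0.44) rose and FDXR (-0.66) fell. Among the cytosolic genes NUBP2 (-0.91), NARFL (-0.64), FAM96B (-0.56) and MMS19 (-0.47) fell. Of these calls NUBP2 remained after the correction (-0.49, adjusted p = 0.0498, limma). NFS1, the cysteine desulfurase, was called after the correction (-0.54, adjusted p = 0.0418, limma) and not before it (-0.37, adjusted p = 0.0824).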

How the data were processed

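The submitters' processing notes name STAR, HOMER and the hg19 build, without versions. The FPKM values were made by the authors over exons of 1 transcript per gene, without a strand option, per the file headers, so reads of antisense neighbours cannot be told apart. The authors' deposited log2 values and log2 fold changes, with their p-values, come from tables normalised within 4 libraries each, and the submitters' notes name DESeq2. Recovered reads were within 0.12 of whole numbers for 100% of tested values. The columns carry a group and no replicate number, so libraries were named by depth. The deeper 1 kPa library was read from a directory whose name states no gel, per the file headers.

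All 5 groups were fitted on one scale, log2(FPKM + 1), with limma 3.58.1 in R 4.3.3 (trend, 12820 genes averaging 0.5 FPKM or more over all libraries, Benjamini-Hochberg adjusted p under 0.05, two-sided); the separately normalised log2 tables served as an alternative. The slope used log10 of stiffness over the 8 libraries at 5 mM. The GC correction subtracted a natural spline with 5 degrees of freedom per library. Fits were tested on simulated data. The labels call the libraries biological replicates. Members and lists were chosen with earlier results of these data known. Named genes were the members, listed genes called in the stiffness or glucose comparison (at most 4 per list, otherwise the 2 most abundant), the 5 most like FTH1 and TFRC, and ferritin copies; HMOX2, BLVRA, FBXL5, PCBP1, PCBP2, CYBRD1 and NFS1 were added after their values were seen. FAM96B and NARFL are the table's symbols for CIAO2B and CIAO3. Other alternatives were the pseudocount, the filter, median scaling, the groups compared alone, a robust fit and leaving out each library. Some rows of the table were not analysed here.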

Additional observations from a re-analysis of the deposited data

How the results depend on the processing

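No paired analysis was possible because the table columns carry no replicate number. Main counts of genes called were 2722 for 60 kPa against 400 Pa, 3136 for glucose, 0 for 1 kPa against 400 Pa, 45 for 6 kPa against 400 Pa, 25 for 6 against 1 kPa, 26 for 60 against 6 kPa, 224 for 60 kPa against high glucose and 2990 for the slope. Without a filter on low values they were 1809 for stiffness, 2015 for glucose, 4, 9, 9, 8 and 145 in the same order up to high glucose, with 2 members called for glucose, 0 at 6 kPa against 400 Pa and 0 against high glucose, and 6 listed iron genes for glucose. With the groups compared alone they were 5462 for glucose, 0 in the 3 comparisons with 6 kPa and 10 against high glucose, with 0 members at 6 kPa against 400 Pa and against high glucose and 26 listed iron genes for glucose. After GC correction they were 1270, 661, 5, 249, 227, 71, 883 and 1085 in the main order, with members called 1 at 1 kPa, 4 at 6 kPa against 400 Pa, 1 at 60 against 6 kPa and 3 for the slope, and 6 listed iron genes for glucose. The deposited log2 values gave 6589 genes and 26 listed iron genes for stiffness, and 7107 and 36 for glucose. A filter at 5 FPKM gave 74 at 6 kPa against 400 Pa and 202 at 60 against 6 kPa, with 1 member in the latter; median scaling gave 78, 55 and 75 in the 3 comparisons with 6 kPa, with 1 member at 60 against 6 kPa; the robust fit gave 42 at 6 against 1 kPa. TFRC reversed under GC correction (-0.31 for stiffness, -0.37 for glucose), as did IREB2 for glucose (-0.021). The causes were not tested.

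Calls were higher at 60 kPa in 71.05% of cases as deposited, 60.21% after median scaling and 56.14% after GC correction. The share was 72.03% and 52.04% after GC correction for glucose, 71.91%, 59.43% (scaling) and 59.54% (GC) for the slope, and 15.56%, 34.62% and 48.19% for 6 kPa against 400 Pa. After GC correction it went from 12.0% to 53.3% for 6 against 1 kPa and from 24.55% to 54.13% against high glucose.

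Leaving out each library in turn, genes called ran from 151 (without the shallower 400 Pa library) to 4503 for stiffness, 0 to 5142 for glucose, 0 to 6 for 1 kPa, 2 to 1777 for 6 kPa against 400 Pa, 1 to 1725 for 6 against 1 kPa, 2 to 4034 for 60 against 6 kPa, 32 to 709 against high glucose and 811 to 4359 for the slope. Members called ran from 3 to 5, 0 to 5, 0 to 0, 0 to 4, 0 to 3, 0 to 5, 0 to 1 and 3 to 5 in that order, and listed iron genes from 3 to 14 for stiffness and 0 to 28 for glucose. Depth limits HMOX1, SLC11A2 and BLVRB most, with 21, 28 and 61 reads in their thinnest libraries.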
